A study of Mus musculus with 6 samples.

Results

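The 36 genes described here mark B lymphocytes, the follicles in which they gather, and leukocytes in general. They were chosen by name, with the high reading of 1 wild-type array already known, and all 36 were measured, by 67 probe sets (groups of short probes that each read a transcript) whose platform annotation gave that gene symbol alone. The full table held 45101 probe sets, and 18194 genes were tested. A further 4 probe sets carried a member's symbol beside another symbol and were left out.

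RNA came from colon epithelium of 12-week-old mice on a mixed 129SvEv/C57BL/6/DBA/2 background, released with 3 mM EDTA and 0.05 mM DTT and not sorted, and was read on Affymetrix mouse expression arrays. In the 3 knockout pools (vil-Cre-Bcl9-/-/Bcl9l-/-) both Bcl9 genes were deleted by a Cre recombinase driven by the villin promoter, which acts in the intestinal epithelium, so lymphocytes are not its target. The 3 wild-type samples (wild type 4, 5 and 6) have labels that name no Cre, so the effect of Cre and that of the deletions cannot be told apart. Every array was made from a pool of mice, which hides differences between single mice. Pools held 3 mice for knockout 1 and for each wild type, and 2 mice for knockout 2 and 3. The 5 probe sets of Bcl9 and Bcl9l differed between genotypes by -0.20 to 0.22 (log2, knockout minus wild type) with overlapping values in each, and the sources used here do not say whether they lie in the deleted parts, so they neither bear out nor contradict the labels.

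B cells recognise antigen through a surface antibody joined to the signalling chains CD79A and CD79B, which pass the signal to kinases and adaptors inside the cell. In the colon, B cells lie in lymphoid follicles of the wall, where the chemokine CXCL13 draws cells that carry its receptor CXCR5. Within a follicle activated B cells can form a germinal centre, run by the transcription factor BCL6. Plasma cells, which secrete IgA into the gut, lie instead in the connective tissue beneath the epithelium.

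Almost all of these genes read highest in a single array, wild type 6. Of the 36 genes, 34 had their highest value there, against 12.8% of all genes tested. In 32 the value was more than 2-fold above the mean of the other 5 arrays, a difference of over 1 on the log2 scale that 2.46% of all genes reached. In 25 it was more than 4-fold above, against 0.868%. By probe set, 61 of 67 were highest in wild type 6, against 15.1% of all probe sets, and 55 were more than 2-fold above the others, against 2.77%. The median difference over the 36 genes was 2.91, against -0.09 over all genes. The genes were picked with this array in view, so these counts describe the choice and were not tested. In bulk RNA, more B cells and more RNA per B cell cannot be told apart.

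**Figure D1:**
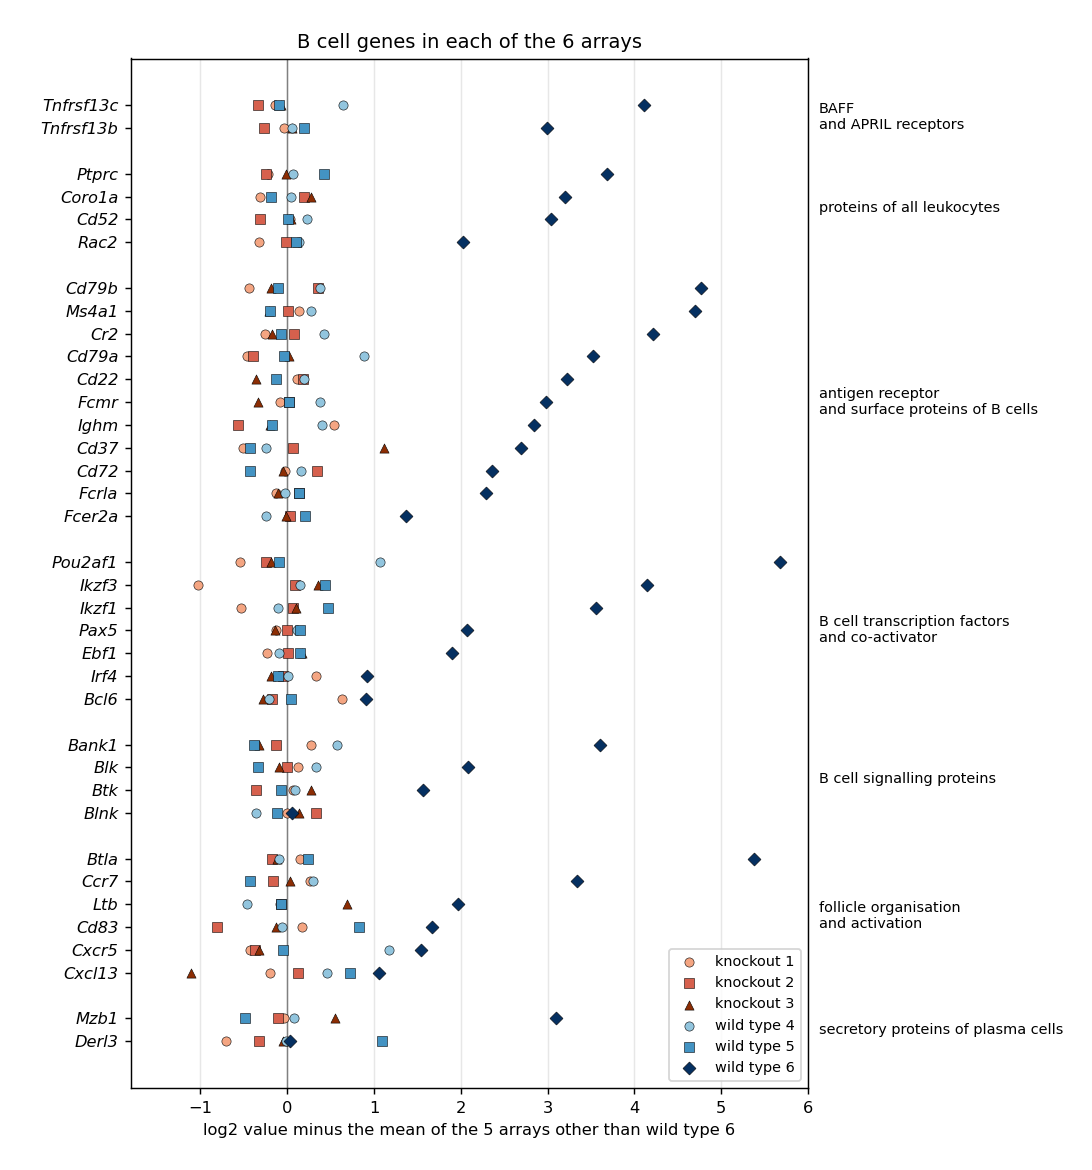
Each row is 1 of the 36 genes, grouped by role, and each symbol is 1 of the 6 arrays, placed at its log2 value minus the gene's mean over the 5 arrays other than wild type 6. The dark diamonds of wild type 6 stand apart from the other symbols in most rows, from 5.67 for Pou2af1 down to 0.05 for Blnk and 0.03 for Derl3.

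The antigen receptor chains and the other surface proteins of B cells all read highest in wild type 6. Cd79b, one of the signalling chains, measured 3.72, 4.50 and 3.97 in knockout 1, 2 and 3, and 4.54, 4.05 and 8.92 in wild type 4, 5 and 6. The reading in wild type 6 was 27.1-fold above the mean of the other 5 arrays, which overlapped between genotypes. No member is shown to be above background in those 5, so folds here are ratios of readings and may understate the ratio of transcripts. Cd79a, its partner chain, measured 4.71, 4.78 and 5.20 in the knockouts and 6.06, 5.15 and 8.71 in wild type. Here wild type 4 was also above every knockout, the highest of which was knockout 3 at 5.20.

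Ms4a1, which encodes the B cell surface protein CD20, measured 3.99, 3.87 and 3.65 in the knockouts and 4.13, 3.66 and 8.55 in wild type. The other 5 arrays spanned 0.48, while wild type 6 stood 4.70 above their mean and 5.70 in the other probe set of the gene. Cr2, the complement receptor CD21 of B cells and follicular dendritic cells, measured 3.59, 3.92 and 3.67 in the knockouts and 4.27, 3.77 and 8.06 in wild type. Cd22, an inhibitory receptor, measured 4.75, 4.82 and 4.28 against 4.84, 4.51 and 7.86. Both had overlapping genotypes once wild type 6 was set aside.

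The remaining surface genes are given first by the probe set that stands for each. Wild type 6 stood above the mean of the others by 2.98 for Fcmr, the receptor for IgM, by 2.69 for the tetraspanin Cd37, by 2.36 for Cd72, by 2.29 for Fcrla and by 1.36 for Fcer2a, the low-affinity IgE receptor CD23. Other probe sets of these genes stood further apart, at up to 3.96 for Fcrla, 3.24 for Cd37 and 2.86 for Fcer2a. For Cd37 the next highest array was a knockout, knockout 3 at 6.38. Ighm, the constant chain of IgM, was read by 11 probe sets, 8 of which were highest in wild type 6, with differences from -0.12 to 3.32. The 3 others were highest in a knockout or in wild type 5, so the probe sets annotated to this gene did not read alike. Antibody genes are near copies of each other, and a probe set named for Ighm may read others. The probe set with the highest mean, which stands for the gene, measured 6.81, 5.71 and 6.07 in the knockouts and 6.67, 6.09 and 9.11 in wild type.

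Among the signalling proteins, Bank1, an adaptor of the antigen receptor, measured 3.08, 2.67 and 2.48 in the knockouts and 3.37, 2.42 and 6.40 in wild type. Blk, a kinase of the Src family, stood 2.09 above the mean of the other arrays in wild type 6, and Btk, the kinase lost in X-linked agammaglobulinaemia, 1.56. Blnk did not follow. This adaptor, which links the receptor's kinases to their targets, measured 9.27, 9.60 and 9.41 in the knockouts and 8.91, 9.15 and 9.32 in wild type, so wild type 6 lay within the range of the others. The source of the Blnk signal in these samples was not tested.

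With 1 probe set standing for each gene, the largest difference of any gene belonged to Pou2af1, a co-activator that works with octamer-binding transcription factors in B cells. It measured 4.12, 4.43 and 4.48 in the knockouts and 5.74, 4.58 and 10.35 in wild type, where wild type 6 was 51.1-fold above the mean of the others. Wild type 4 was the next highest, and every wild-type array was above every knockout. Ikzf3, which encodes the lymphocyte factor Aiolos, measured 5.08, 6.21 and 6.47 in the knockouts and 6.26, 6.55 and 10.25 in wild type. Its relative Ikzf1, or Ikaros, stood 3.56 above the others in wild type 6.

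Pax5 and Ebf1, the factors that hold B cell identity, differed by 2.07 and 1.90. Pax5 was steady elsewhere, at 4.84, 4.97 and 4.82 in the knockouts and 5.08 and 5.11 in wild type 4 and 5, before 7.04 in wild type 6. The 5 probe sets of Ebf1 all read highest in wild type 6, by 0.48 to 3.56. Irf4, which directs plasma cell formation, differed by 0.92, and its other probe set by 2.00. The other probe set of Pax5 differed by 0.95.

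Bcl6, the factor that defines germinal centres, measured 8.43, 7.62 and 7.53 in the knockouts and 7.60, 7.84 and 8.71 in wild type. Its value in wild type 6 was only 0.28 above that of knockout 1.

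Promoter windows of 4 genes are shown because most of these genes were high in the same array. The 250 bases before the annotated start, on the gene's strand, come from RefSeq (build GRCm38.p6), which gave 32 such windows for 25 of the 36 genes. Searched on both strands were the octamer ATGCAAAT, the EBF motif (TCCC, any pair of bases, GGGA) and a PU.1 motif, GAGGAAGT. Capitals mark a match. Pou2af1 (chr9:51213440-51213689, plus strand) has the largest difference, Cd79a (chr7:24897247-24897496, plus strand) encodes the receptor chain, and Cd22 (chr7:30879029-30879278, minus strand) and Blnk (chr19:40994222-40994471, minus strand) hold 1 match each, TCCCTGGGGA and ATTTGCAT, the reverse strand of the octamer.
Pou2af1: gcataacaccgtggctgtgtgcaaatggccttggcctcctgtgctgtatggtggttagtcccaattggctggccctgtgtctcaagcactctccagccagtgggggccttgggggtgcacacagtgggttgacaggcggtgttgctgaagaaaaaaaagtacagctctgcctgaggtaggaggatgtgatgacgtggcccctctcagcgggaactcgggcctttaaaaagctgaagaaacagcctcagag
Cd79a: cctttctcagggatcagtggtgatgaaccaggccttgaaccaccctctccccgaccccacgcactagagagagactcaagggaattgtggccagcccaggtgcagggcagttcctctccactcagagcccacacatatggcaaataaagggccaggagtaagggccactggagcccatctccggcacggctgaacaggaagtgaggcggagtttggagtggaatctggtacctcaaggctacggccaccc
Cd22: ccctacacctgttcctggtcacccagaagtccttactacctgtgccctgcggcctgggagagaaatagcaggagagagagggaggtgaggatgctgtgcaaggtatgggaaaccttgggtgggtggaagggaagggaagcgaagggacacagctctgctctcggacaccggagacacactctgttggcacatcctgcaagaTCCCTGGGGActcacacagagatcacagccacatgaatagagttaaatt
Blnk: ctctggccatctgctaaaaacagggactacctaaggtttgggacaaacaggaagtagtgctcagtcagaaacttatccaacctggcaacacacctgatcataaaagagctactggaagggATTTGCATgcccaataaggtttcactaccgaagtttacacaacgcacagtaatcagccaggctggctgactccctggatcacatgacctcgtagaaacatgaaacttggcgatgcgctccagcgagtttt

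The octamer was found in the window of 1 of these 25 genes, Blnk, whose array values did not follow the others, and in 1.6% of all 32851 RefSeq windows. The EBF motif was found for 1, Cd22, against 0.779% of all windows, and the PU.1 motif for 3, Btla, Cd37 and Cd72, against 2.44%. Counted by window, as those shares are, the octamer was in 1 of the 32 member windows, the EBF motif in 1 and the PU.1 motif in 3. These matches describe letters in a short window and say nothing of binding.

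Receptors for the survival factors BAFF and APRIL were both high in wild type 6. Tnfrsf13c, the BAFF receptor of mature B cells, measured 6.27, 6.08 and 6.34 in the knockouts and 7.05, 6.31 and 10.52 in wild type, 17.3-fold above the mean of the others in wild type 6. Tnfrsf13b, or TACI, measured 3.61, 3.38 and 3.70 against 3.70, 3.84 and 6.63. In Tnfrsf13c wild type 4 was again the next highest array.

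Genes of follicle organisation fell into 2 patterns. Btla, an inhibitory receptor of lymphocytes, had the second largest difference with 1 probe set a gene. It measured 4.17, 3.86 and 3.92 in the knockouts and 3.94, 4.27 and 9.41 in wild type, with a range of only 0.41 outside wild type 6. Ccr7, the receptor that guides lymphocytes into lymphoid tissue, stood 3.33 above the others, and Ltb, a lymphotoxin chain needed to build that tissue, 1.96.

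The chemokine Cxcl13 and its receptor Cxcr5 were high in more than 1 wild-type array. Cxcl13 measured 7.36, 7.68 and 6.46 in the knockouts and 8.02, 8.29 and 8.62 in wild type, so all 3 wild-type arrays were above all 3 knockouts. Its other probe set separated the groups too, with a highest knockout of 6.90 and a lowest wild type of 7.12, and was highest in wild type 5 at 8.20. Cxcr5 measured 3.49, 3.55 and 3.59 in the knockouts and 5.09, 3.87 and 5.46 in wild type, also without overlap. Cd83, an activation marker of B cells and dendritic cells, was highest in wild type 6 at 7.63, followed by wild type 5 at 6.79 and knockout 1 at 6.13.

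Both plasma cell members differed from each other. Mzb1, a chaperone of antibody assembly that some mature B cells also make, measured 4.42, 4.36 and 5.01 in the knockouts and 4.54, 3.97 and 7.56 in wild type. Derl3, of the pathway that clears misfolded proteins from the endoplasmic reticulum, measured 3.46, 3.85 and 4.12 against 4.16, 5.27 and 4.20. It was therefore highest in wild type 5 and not in wild type 6.

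Genes shared by all leukocytes were high in wild type 6 as well. Ptprc, the common leukocyte antigen CD45, measured 6.63, 6.61 and 6.84 in the knockouts and 6.93, 7.28 and 10.55 in wild type. Coro1a, an actin-binding protein, stood 3.20 above the others in wild type 6, the surface protein Cd52 3.04 and the GTPase Rac2 2.02.

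Set against the whole array, the 36 genes lay at the upper end of the wild type 6 difference. They made up 10 of the 20 genes with the largest difference, 16 of the first 50 and 27 of the first 200. At the other end, Blnk ranked 4993 and Derl3 5447 of 18194. The 10 genes outside the set with the largest differences were Ighv14-2 (5.25), a variable segment of the antibody heavy chain, H2-Ob (5.15), a chain of a class II accessory molecule found in B cells, Ifi209 (4.54) and Mndal (4.12), both of an interferon-inducible family, Klhl6 (4.42) and Stap1 (4.26), which act in antigen receptor signalling, the transcription factor Mef2c (4.08), the chemokine receptor Cxcr4 (4.03), Insyn2b (3.84) and Retnla (3.70). Each value is wild type 6 minus the mean of the other 5 arrays on the log2 scale.

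**Figure D2:**
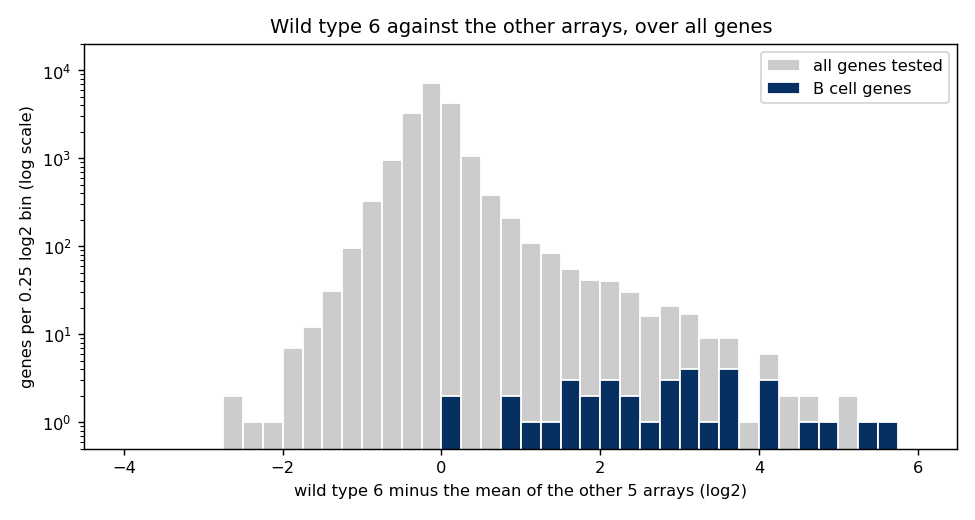
The horizontal axis is wild type 6 minus the mean of the other 5 arrays (log2) and the vertical axis, on a log scale, counts genes in bins 0.25 wide. All 18194 genes are in grey and the 36 B cell genes in blue; 32 of the 36 lie beyond 1, where 448 genes lie in all.

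Other genes of the B cell receptor pathway followed in part. Of 20 measured, 17 were highest in wild type 6 and 10 were over 2-fold above the others, with a median difference of 0.97. Prkcb, a protein kinase C of the pathway, differed by 3.54, Rasgrp3 by 2.88, Was, a regulator of actin, by 2.76 and the inhibitory antibody receptor Fcgr2b by 2.04. Of 22 other B cell identity genes, 19 were highest in wild type 6, with a median of 1.72, among them H2-Ob, Cxcr4, Ly86 (3.14) and H2-DMb2 (2.82).

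Germinal centre genes followed in part. Of 18 measured genes of the germinal centre reaction outside the set, 8 were highest in wild type 6, where 12.8% of all genes were, and 5 were over 2-fold above the others, against 2.46%. The list as drawn up includes cell division genes that other cells also make, and its median difference was 0.27. Mef2c, Basp1 (3.06), Mybl1 (2.28), a Myb-family factor of germinal centre B cells, and the migration receptor Gpr183 (1.40) differed most. The fifth beyond 2-fold, chosen after its value was seen, was Gcsam (1.29). Since these genes were mixed and Bcl6 was below 2-fold, the 36 genes are called B cell genes here. That name does not mean that germinal centre cells were absent, which was not tested.

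Antibody genes varied among all 6 arrays. Igha, the constant chain of IgA, measured 10.07, 10.76 and 11.63 in the knockouts and 11.38, 9.58 and 12.44 in wild type. Igk, the kappa light chain, measured 9.01, 10.39 and 11.00 against 10.87, 9.42 and 12.49. Jchain, which joins IgA units into pairs, measured 6.54, 7.68 and 8.74 against 8.26, 6.09 and 9.68. In all 3, wild type 6 was highest, but knockout 3 and wild type 4 were high too, and knockout 1 and wild type 5 were low. The 5 arrays other than wild type 6 thus spanned 2.06, 1.99 and 2.65 log2 units in these genes. Over the 11 surface and receptor genes of B cells the same range ran from 0.27 for Fcrla to 1.62 for Cd37, with 1.35 for Cd79a. Over the other probe sets of these genes it ran from 0.18 for Cd22 to 2.05 for Ighm, with 1.76 for Ms4a1. The 11 genes read low in those 5 arrays, with a median of 4.64 over their means. Igha averaged 10.68 there, Igk 10.14 and Jchain 7.46. Readings near background may vary less, so these ranges may not compare like with like. Over the 21 measured plasma cell and immunoglobulin genes, a list with secretory pathway genes that other cells also make, the median difference of wild type 6 was 0.13.

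**Figure D3:**
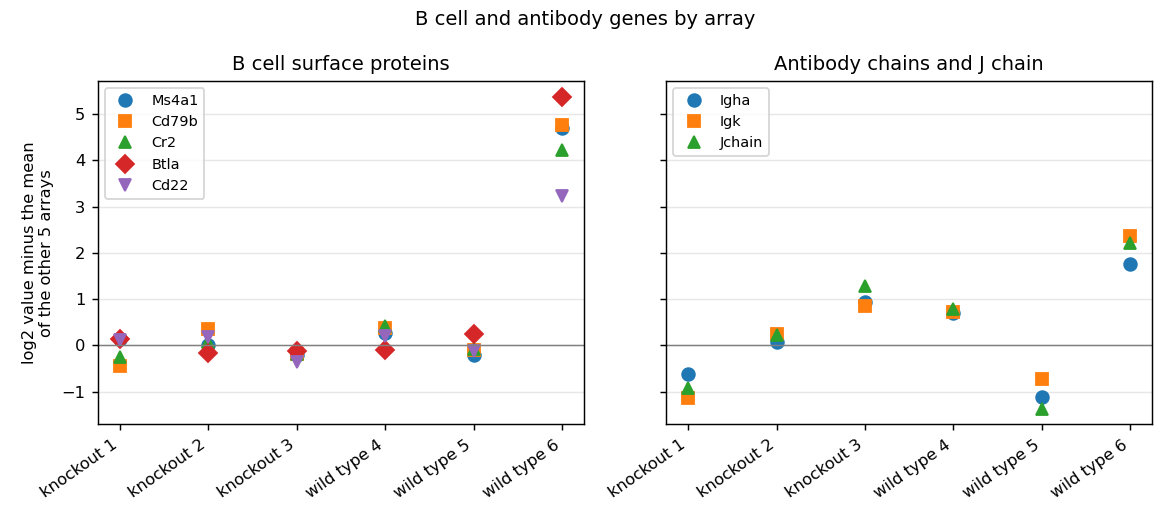
Each symbol is 1 gene in 1 array, as the log2 value minus the gene's mean over the 5 arrays other than wild type 6, for 5 surface proteins of B cells on the left, picked among those with large differences, and antibody chains with J chain on the right. The 5 genes picked stand near 0 in 5 arrays and at 3.22 to 5.37 in wild type 6, while Igha, Igk and Jchain spread widely over all 6 arrays and stand at 1.76 to 2.35 in wild type 6. The 5 picked averaged only 3.85 (Cr2) to 4.64 (Cd22) in those 5 arrays, and readings near background may vary less.

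Markers of some other cells were also high in wild type 6, by less. To summarise a list, each gene's log2 value was set against its mean in the 5 arrays other than wild type 6, and the median of these differences was taken as the list's level. For the 36 B cell genes it was 2.91 in wild type 6 and -0.08 to 0.13 elsewhere. For 23 T cell markers it was 0.84 against -0.15 to 0.12, with Lef1 (2.21), Cd2 (2.14), Cd28 (1.87) and Cd3g (1.76) the furthest apart. For 12 fibroblast markers it was 0.91 against -0.34 to 0.19, led by Vim (1.59), Col3a1 (1.58), Dcn (1.45) and Col1a2 (1.40).

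For 18 macrophage and dendritic cell markers the level was 0.29 against -0.18 to 0.13. Lyz2 (3.08) and Lyz1 (3.03), near copies that probe sets may not tell apart, differed most, then C1qb (2.46), which was higher still in knockout 1 at 10.26 than in wild type 6 at 9.86, and Csf1r (1.48). Smooth muscle markers stood at 0.39, beside 0.37 in wild type 4, with Acta2 (1.37), Myh11 (0.72), Actg2 (0.68) and Cnn1 (0.66) named by the rule. Follicular dendritic cell and lymphoid stroma genes stood at 0.03, where Fcgr2b of the receptor pathway list recurs, Ccl20, a chemokine of the epithelium over follicles, read lower in wild type 6 (-1.47) and Clu (0.78) and Icam1 (0.77) read higher. The part of these other cells in the B cell result was not tested.

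The level of 17 epithelial markers, a median over genes that went both ways, ran from -0.04 to 0.03, and was 0.00 in wild type 6. These markers read high, with a median of 12.4 over their means in the other 5 arrays, on a scale that ended at 14.4. The share of epithelial cells was not tested. Chosen after its values were seen, the junction gene Cldn4 measured 4.32, 5.15 and 5.05 in the knockouts and 6.32, 6.27 and 5.52 in wild type, so single markers could part where the median did not. The markers that differed most in wild type 6 were Cdx2 (-0.45), Car1 (-0.25), Slc26a3 (0.24) and Cdx1 (-0.23). Levels in wild type 6 were 0.09 for M cell and follicle-associated epithelium markers, where Spib (1.85), which B cells also make, Tnfaip2 (1.72) and Aif1 (1.38) read higher and Ccl20 (-1.47) lower. They were 0.02 for neutrophil and mast cell markers (S100a9 1.55, Cpa3 0.76, Cma1 -0.63, S100a8 0.62), 0.09 for endothelium (Pecam1 1.41, Vwf -1.19, Cldn5 -0.37, Eng 0.30) and -0.15 for enteric neurons and glia (Tubb3 -0.43, S100b -0.26, Gfap -0.20, Uchl1 -0.15). Only 3 red blood cell genes were measured, of which Alas2 (2.39) stood apart from Hba-a1 (0.11) and Slc4a1 (0.06).

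**Figure D4:**
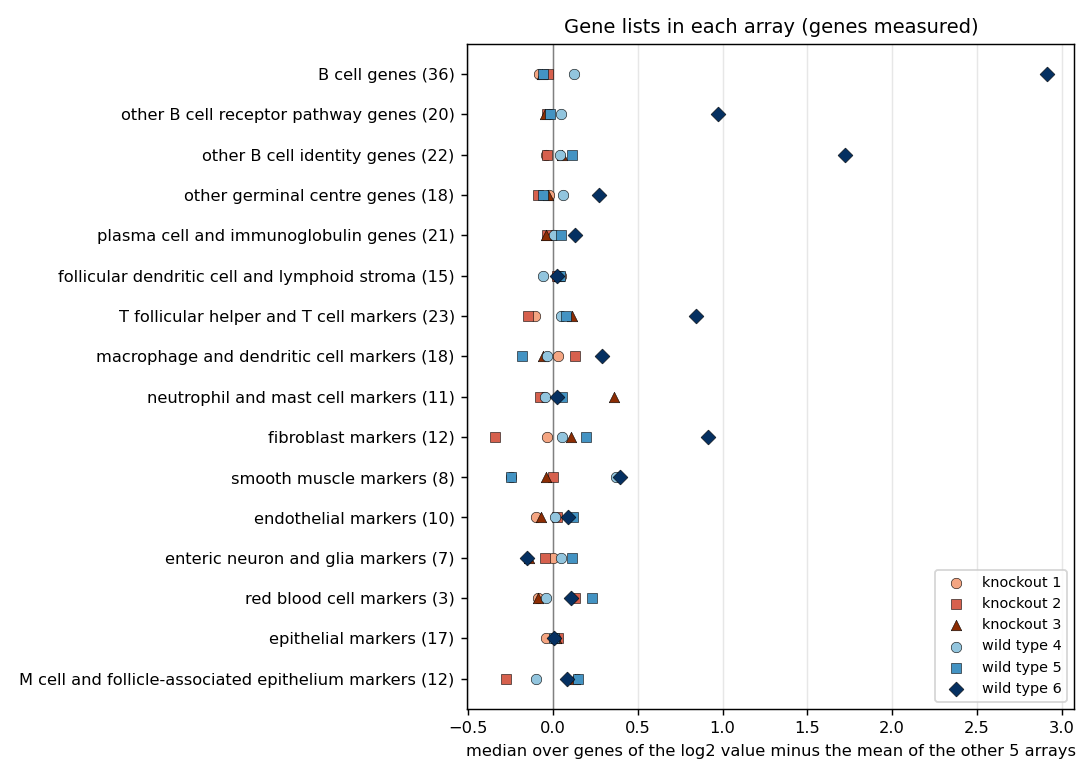
Each row is a gene list with its number of measured genes and each symbol 1 array, placed at the median over genes of the log2 value minus the mean of the 5 arrays other than wild type 6. Wild type 6 stands at 2.91 for the B cell genes, at 0.84 for T cell, 0.91 for fibroblast and 0.00 for epithelial markers.

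The comparison the study was designed for, knockout against wild type, called none of the 36 genes. The median difference was -1.08 on the log2 scale, against 0.01 over all genes, and 35 of the 36 lay below 0, as did 47.8% of all genes. With limma's test and Benjamini-Hochberg adjustment over 18194 genes, 0 of the 36 passed (adjusted p = 0.953 to 0.978), as did 0% of all genes. At an unadjusted p under 0.05 there were 2, both lower in the knockouts, against 2.02% of all genes. In 7 genes every knockout was below every wild type, against 4.83% of all genes, and in 0 every knockout was above, against 5.5%. Since these genes were chosen with the high reading of a wild-type array already known, nothing was read from the counts.

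The spread within wild type was wide. For Cd79b the knockout mean was 4.06 ± 0.40 and the wild-type mean 5.83 ± 2.68 (SD, n = 3 each), and the difference of -1.77 had a 95% interval of -4.61 to 1.07 (limma adjusted p = 0.954). For Pou2af1 the means were 4.35 ± 0.19 and 6.89 ± 3.05, and the difference was -2.54 (-5.74 to 0.66). The interval of a typical member reached 1.77 to either side, and that of a typical gene 0.36.

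The same comparison without wild type 6 set 3 knockouts against 2 wild types. These 5 arrays were the low side of the choice of genes, so it is not independent of that choice. The median difference of the 36 genes was then -0.17, against -0.02 over all genes, with 25 below 0 and 11 above, where 55.1% of all genes lay below 0. No member passed limma's test (adjusted p = 0.782 to 0.995), where 3 of all genes, or 0.0165%, did. Those were Lrg1, Pla2g2a and Vav3, none of them among the 36 genes. At an unadjusted p under 0.05 there were 5 members lower in the knockouts, against 3.6% of all genes, and 1 higher, against 2.37%, so 6 in either direction against 5.97%.

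The members lower at that level were Cxcl13 (-0.99, 95% interval -1.84 to -0.14), Cxcr5 (-0.94, -1.75 to -0.13), Derl3 (-0.91, -1.75 to -0.06), Pou2af1 (-0.81, -1.62 to -0.01) and Ptprc (-0.41, -0.79 to -0.03). Blnk was the one higher (0.40, 0.02 to 0.77). These 5 genes did not share a high array. Wild type 4 was the higher of the remaining wild types in Cxcr5 and Pou2af1, and wild type 5 in Cxcl13, Derl3 and Ptprc. With limma and Benjamini-Hochberg adjustment their adjusted p lay between 0.782 and 0.825.

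Knockout values lay below both remaining wild types for 7 members, against 13.3% of all genes, and above both for 1, Blnk, against 8.98%. The 7 were the 5 lower genes with Pax5 (-0.22) and Tnfrsf13b (-0.21). For the antigen receptor group the median difference was -0.09, with 8 of 11 below 0 and 0 at an unadjusted p under 0.05. Cd79a had the lowest difference of the group, at -0.70 (95% interval -1.41 to 0.006). Cd79b differed by -0.23 (-0.87 to 0.41), Ms4a1 by -0.06 (-0.51 to 0.40) and Cr2 by -0.29 (-0.76 to 0.17). In the probe sets that stand for these genes, values overlapped between genotypes. Cd37 (0.56), Ltb (0.44), Mzb1 (0.34) and Cd72 (0.22) pointed the other way. The other probe set of Ms4a1 gave a difference of -1.002 (-1.85 to -0.16), with every knockout below both wild types.

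**Figure D5:**
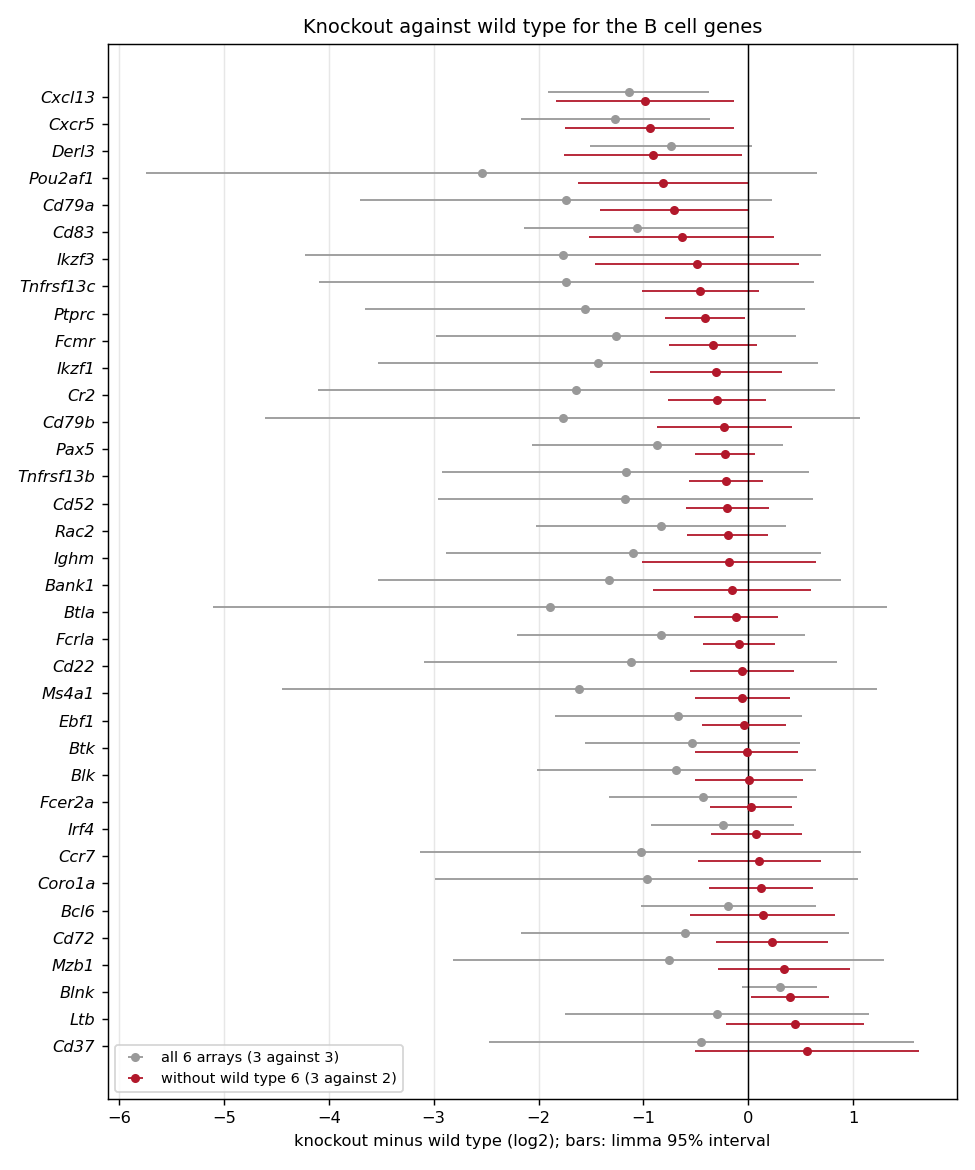
Each row is 1 of the 36 genes, with the log2 difference knockout minus wild type and limma's 95% interval over all 6 arrays (grey, 3 against 3) and without wild type 6 (red, 3 against 2). The median difference is -1.08 in grey and -0.17 in red, and the median interval reaches 1.77 and 0.52 to either side.

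Among the 5 remaining arrays, the members were highest most often in wild type 4, in 14 of 36 genes, where 18.6% of all genes had their highest of the 5. Wild type 5 was highest in 11, against 24.1%, knockout 3 in 6, against 17.7%, knockout 1 in 3, against 23.5%, and knockout 2 in 2, against 16.1%. In 24 members the 5 arrays spanned less than 1 log2 unit. The median range over the 36 members was 0.72, wider than the 0.44 over all genes. The wider ranges belonged to Cxcl13 (1.83), Derl3 (1.81), Cd83 (1.64), Cd37 (1.62), Pou2af1 (1.61) and Cxcr5 (1.60), among 12 members in all.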

How the data were processed

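The deposited values are log2 expression values per probe set, made by the authors with RMA, per the submitters' processing notes. No version is given there, and the values, from 1.78 to 14.4, set the scale. Array medians lay between 5.44 and 5.58. Raw scans, their dates and calls of detection were not used here, so batches were not tested and no member is shown to be above background. Arrays have no read depth; their number limits the precision. Per the labels' protocols, 30 ng of pooled total RNA was amplified for each array.

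Of 45101 probe sets, 34958 had 1 gene symbol, 932 several and 9211 none. Each gene took its probe set with the highest mean, leaving 18194 genes with no filter on low values. All 36 members matched RefSeq by gene number. The genotypes were compared, with all arrays and again without wild type 6, in limma 3.58.1 (R 4.3.3) with its lmFit and eBayes functions, two-sided and without covariates. An adjusted p under 0.05, by Benjamini-Hochberg over the 18194 genes, was called. Replicates are separate pools, so the p-values reflect the spread from pool to pool. The fit was checked on simulated data.

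The members and lists were chosen with earlier results of these data known. Genes outside the set were named by rule: in each list up to 4 with the largest wild type 6 difference in either direction, the 10 with the largest over all genes, and those called without wild type 6; exceptions are named as such. Alternatives tried were array weights, a trend on intensity with robust variances, cyclic loess, a filter to brighter genes, averaged probe sets, single probe sets, no probe sets ending in _x_at or _s_at, and leaving out each array. Figures were drawn with matplotlib 3.10.9.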

Additional observations from a re-analysis of the deposited data

How the results depend on the processing

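No member was called under any alternative run, with or without wild type 6. The median of wild type 6 minus the other arrays was 3.01 with cyclic loess, 3.02 over the 8 members among brighter genes, 2.80 with the mean of probe sets and 2.36 over the 67 probe sets, and 2.81 to 2.97 without any 1 other array (without wild type 6 it has no value). Wild type 6 was highest in 7 of those 8 brighter members, in 61 of 67 probe sets, and in 34 to 35 genes without any 1 other array. The knockout difference of the members ran from -1.59 to -0.17 when 1 array was left out, and was -0.68 with array weights. All genes called numbered 0 to 3 when 1 array was left out, 3 of them without wild type 6.

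Without wild type 6, leaving out a further array gave a median of -0.22 to -0.088 and 1 to 15 genes called over the whole table, 15 without wild type 4 and 1 without wild type 5 or knockout 3; a lone wild-type array is then assumed to vary like the others. Among brighter genes 1 was called, with a median of -0.30 for 8 members. The sign of the difference turned without wild type 6 for Bcl6 (0.14), Blk (0.0104), Ccr7 (0.11), Cd37 (0.56), Cd72 (0.22), Coro1a (0.12), Fcer2a (0.0273), Irf4 (0.0771), Ltb (0.44) and Mzb1 (0.34), none of them called; leaving out each array gave -0.48 to 0.14, -1.20 to 0.0104, -1.77 to 0.11, -0.996 to 0.56, -1.17 to 0.22, -1.57 to 0.12, -0.77 to 0.0273, -0.43 to 0.0771, -0.77 to 0.44 and -1.45 to 0.34 for them in that order. By single probe sets without wild type 6, the difference ran from -0.50 to 0.12 for Coro1a and from -0.057 to 0.077 for Irf4. Whether the sign turned for these genes thus depended on the probe set. Ebf1, Fcrla, Ighm and Ikzf3, which kept their sign above, also had probe sets on both sides of 0. With array weights the sign turned for Cd37 (0.22) and Ltb (0.19). The cause was not tested. No paired analysis was possible because the groups share no replicate number.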
